A study of Mus musculus with 9 samples.

Results

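The genes described here are 32 genes of fatty acid oxidation and of the PPARα target programme, in epithelial cells of the mouse small intestine. They were found by gene name in a table of RNA-seq counts for 43629 genes, which held a line for each of the 32. Of these, 31 passed the filter on low counts, as did 15486 genes in all. The exception was Cyp4a31, with 2 counts in 1 library and 0 in the other 8. The table covers 9 libraries in 3 groups of 3. All mice are labelled as naïve, and the groups are HIF1α∆IEC, HIF2α∆IEC and littermate controls labelled HIF[alpha]F/F. HIF1α, the product of Hif1a, and HIF2α, the product of Epas1, are oxygen-regulated subunits of transcription factors, and ∆IEC marks a loss in intestinal epithelial cells. The controls carry floxed alleles, but their label does not say which of these genes is floxed. The labels name no Cre driver, no age and no sex, and it is not stated whether every library is from its own animal. What the p-values measure is thus the spread of these samples, part of which may be technical. A collagen-induced arthritis model is mentioned in the extraction text but not under treatment.

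PPARα is a nuclear receptor that is activated by fatty acids, pairs with RXR and binds DNA at a direct repeat of AGGTCA with a spacer of 1 base, called DR1. Its targets carry fatty acids into mitochondria and peroxisomes, shorten them by β-oxidation and adjust fuel choice and lipid storage. In the small intestine, absorbing enterocytes take up dietary fat and use this programme to burn or store part of it.

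The following sequences show where the promoters of these genes hold letters close to DR1. RefSeq promoter windows (GRCm38.p6, 250 bases before to 50 after a start) were matched by symbol for 26 of the 32 genes. Both strands were searched for AGGTCANAGGTCA with at most 2 mismatches. Of the 26 genes 4 held such a match (15.4%), beside 1190 of 27025 genes with a window (4.4%). The 4 are given 5′ to 3′ on the strand of the gene, with the 13 matched bases in capitals.
Fabp1, chr6:71199804-71199832, plus strand: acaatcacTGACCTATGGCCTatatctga
Slc25a20, chr9:108662134-108662162, plus strand: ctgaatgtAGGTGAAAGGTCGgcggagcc
Creb3l3, chr10:81092780-81092808, minus strand: ctgtaagtAGGGGAGAGGTCAcacagacc
Plin2, chr4:86670264-86670292, minus strand: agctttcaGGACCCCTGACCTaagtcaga
The match of Fabp1 starts 67 bases before its start and has 1 mismatch, where starts are those of RefSeq. It was the only match of that quality among the 26 genes (3.85%), beside 174 of all genes (0.644%). Fabp1, the liver-type fatty acid binding protein, is a textbook PPARα target. The 250 bases upstream of its RefSeq start, chr6:71199629-71199878, carry the match in capitals near the end of the run. The gene coordinates deposited with the counts begin earlier, at 71199827, which lies inside this run and after the match.
Fabp1 upstream: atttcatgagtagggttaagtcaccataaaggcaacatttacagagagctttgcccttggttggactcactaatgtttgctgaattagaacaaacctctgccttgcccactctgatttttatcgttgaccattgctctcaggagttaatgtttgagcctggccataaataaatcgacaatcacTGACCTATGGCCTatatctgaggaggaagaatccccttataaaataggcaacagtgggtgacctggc
The match of Slc25a20 lies 7 bases after its start, that of Plin2 225 bases before it and that of Creb3l3 209 bases before an internal start of that gene. The core ACGTG, which HIF factors bind, was searched on both strands and was in the windows of 5 of the 26 genes (19.2%), beside 5886 of 27025 genes (21.8%). A match describes letters in a window and is not a bound site.

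Total counts ran from 20959964 to 40391453 per library. A pair of libraries stood apart: replicate 2 of HIF1α∆IEC, with 12.2% of its counts from the mitochondrial genome, and replicate 1 of HIF2α∆IEC, with 10.8%, against 5.04% to 6.74% in the other 7. Xist and Y-linked genes read the 3 controls as male, and replicate 1 as male and replicates 2 and 3 as female in both other groups. No control was read as female, so in the female libraries sex and genotype cannot be told apart. Hif1a had 22.6, 64.2 and 18.0 CPM (counts relative to the TMM-scaled library size) in HIF1α∆IEC against 16.0, 19.9 and 21.1 in the controls. Epas1 had 36.1, 11.2 and 11.6 CPM in HIF2α∆IEC against 32.7, 14.5 and 21.1. Counts over a whole gene do not show the loss of some exons, and the labels do not say which were removed, so these values do not check the labels.

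Epithelial markers summed to between 14506 and 22059 CPM per library, and all 11 of the 11 markers passed the count filter. Their mean log2 deviation from the control mean was 0.53 in HIF2α∆IEC replicate 1, against -0.23 to 0.21 in the other 8 libraries. In HIF2α∆IEC replicate 1 Vil1, Krt20, Alpi, Fabp2, Lct, Sis and Anpep were each above all controls. Epcam, Cdh1, Krt8 and Krt18 were each below all controls there. The 12 markers of T and intraepithelial lymphocytes summed to 3475 CPM in HIF2α∆IEC replicate 1 and to between 308 and 880 in the other 8 libraries. In that library the 6 erythroid markers summed to 118 CPM against 2.57 to 23.7 elsewhere, and 5 Paneth cell markers to 6889 against 13480 to 20040. Macrophage markers (5 found) summed to 9.86 to 13.1 CPM in the controls, 16.5 to 46.0 in HIF1α∆IEC and 13.6 to 30.5 in HIF2α∆IEC. Adipocytes, which also run this programme, had marker sums of at most 0.266 CPM in every library, with 3 of 7 markers at 0 throughout. Markers of stroma and muscle (10) summed to 1.27 to 2.77 CPM in the controls, 2.10 to 9.49 in HIF1α∆IEC and 7.92 to 10.4 in HIF2α∆IEC, without overlap between HIF2α∆IEC and the controls. The 6 markers of distal intestine summed to 476 to 826 CPM in the controls, 844 to 1381 in HIF1α∆IEC and 994 to 1184 in HIF2α∆IEC. By this sum both knockout groups lay above all controls, the nearest at 844 against 826. By the mean log2 deviation from the control mean, HIF1α∆IEC and the controls overlapped. Control replicate 3 was at 0.31 and HIF1α∆IEC replicate 3 at 0.22. The 6 markers of proximal intestine summed to 1184 to 1497, 985 to 1502 and 1091 to 2204 CPM, and these sums overlapped. Their mean log2 deviation from the control mean was -0.88 and -1.09 in HIF2α∆IEC replicates 2 and 3. Pdx1 among them had 1.54 and 0.347 CPM there, against 5.28 to 20.8 in the controls. The part of other cells or of the stretch of intestine sampled in the results on this gene set was not tested. In RNA from bulk cells, fewer cells of a type and less RNA per cell cannot be told apart.

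**Figure D1:**
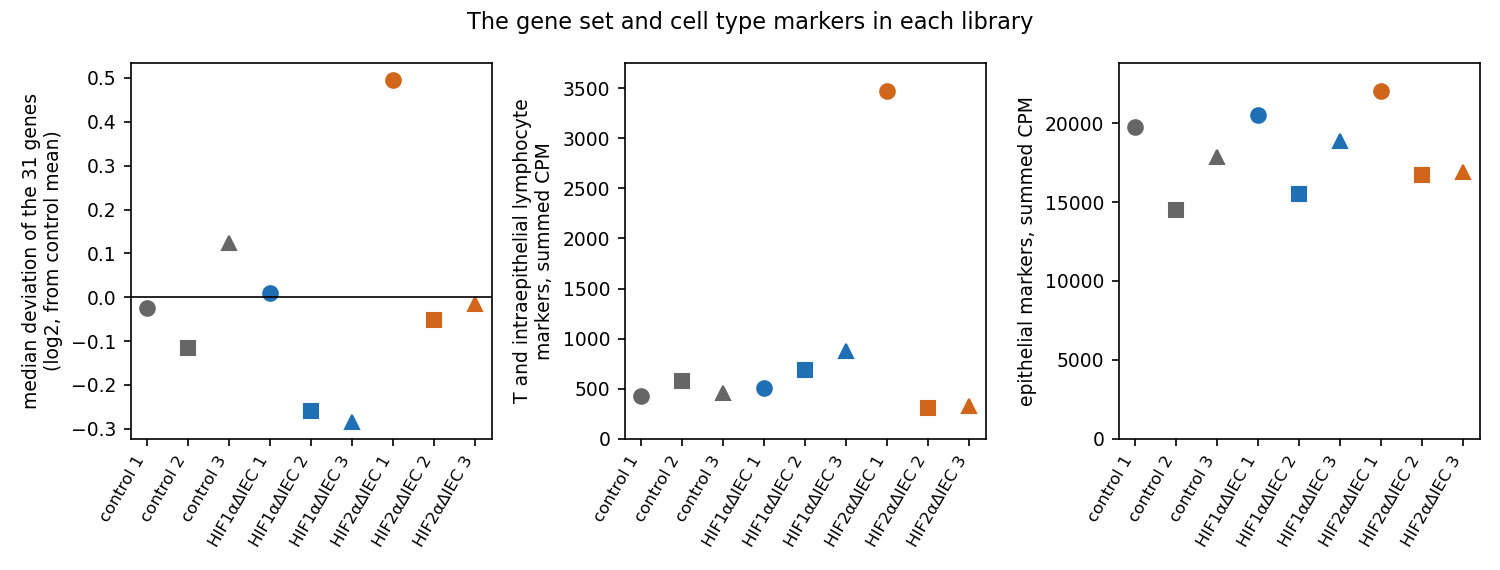
Per library, the median log2 deviation of the 31 tested genes from the control mean (left), the summed CPM of 12 T and intraepithelial lymphocyte markers (middle) and the summed CPM of 11 epithelial markers (right). HIF2α∆IEC replicate 1 is the highest of the 9 libraries in all 3 panels, at 0.50 log2 units, 3475 CPM and 22059 CPM.

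The gene set as a whole varied between libraries of the same group. The 31 genes had a median log2 deviation from the control mean of 0.50 in HIF2α∆IEC replicate 1, against -0.05 and -0.01 in replicates 2 and 3 of that group. In HIF1α∆IEC the medians were 0.01, -0.26 and -0.28, with the near-zero value in the library read as male. The controls themselves ran from -0.12 to 0.12. HIF2α∆IEC replicate 1 held the highest value of 16 of the 31 genes, where it was the highest library for 19.7% of all genes tested. HIF1α∆IEC replicate 2 held the lowest value of 9 of them and was the lowest library for 23.9% of all genes.

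**Figure D2:**
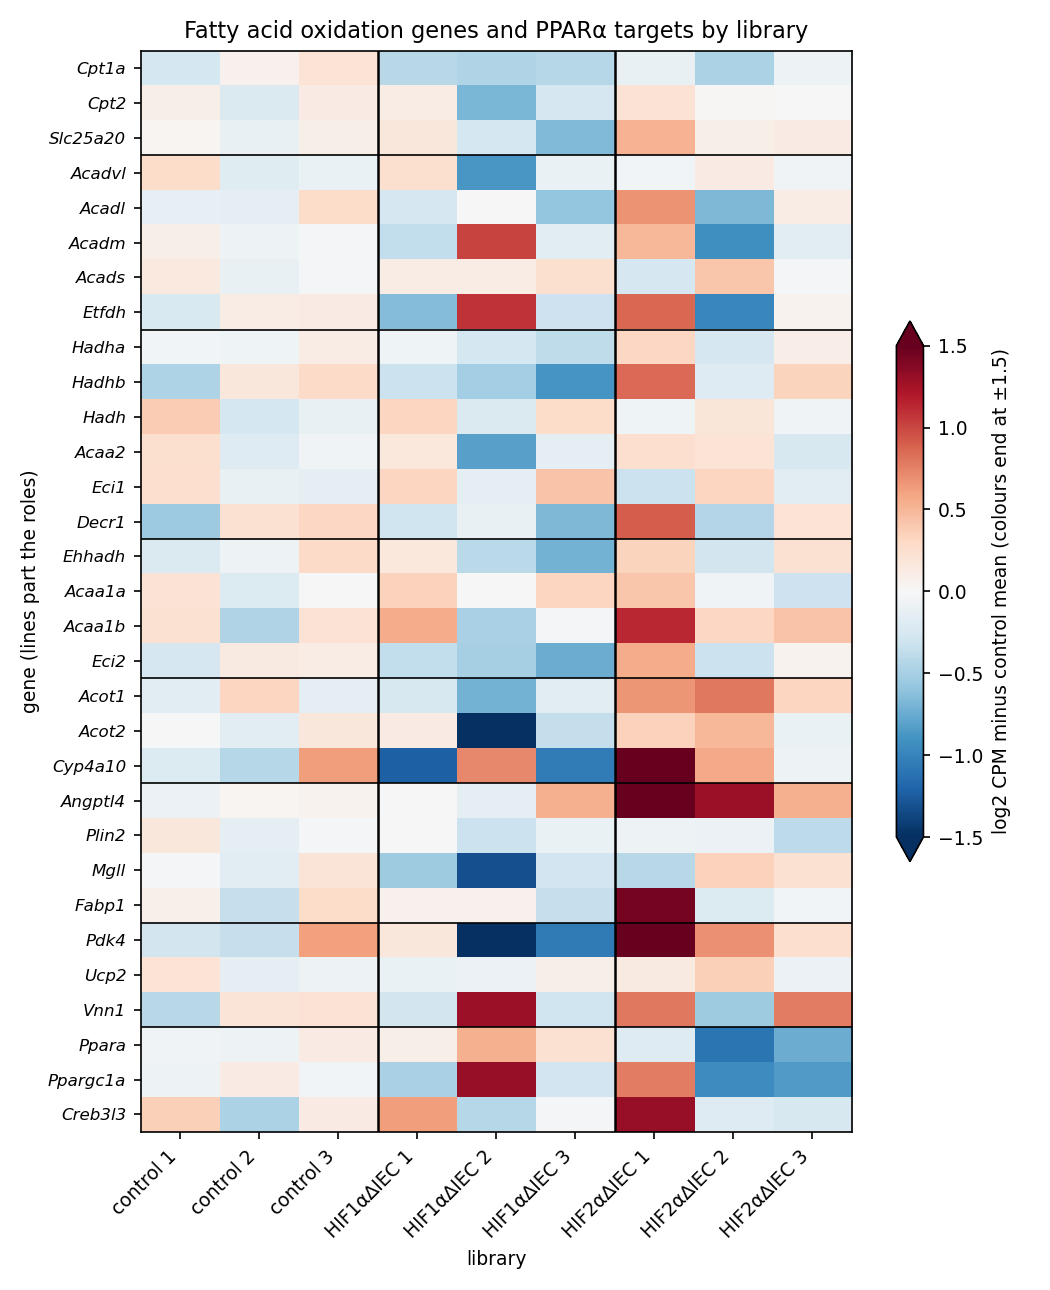
Each row is 1 of the 31 tested genes, ordered by role, and each column 1 library, with colour for log2 CPM minus the mean of the controls and colours ending at ±1.5. Red is above the control mean, as for 23 of the 31 genes in HIF2α∆IEC replicate 1, and blue below it, as for all but 9 and 7 genes in HIF1α∆IEC replicates 2 and 3.

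Per kilobase of gene length, the levels in the controls spread over more than 3 orders of magnitude. Fabp1 stood at 815 CPM per kb, far above Hadh, which encodes the short-chain 3-hydroxyacyl-CoA dehydrogenase, at 145. Acaa2, the mitochondrial 3-ketoacyl-CoA thiolase, was at 117 and Ucp2, an uncoupling protein of the inner mitochondrial membrane, at 113. Hadh, Acaa2 and Ucp2 overlapped in their libraries. In all, 21 of the 32 genes were above 10 CPM per kb and 11 below. Pdk4 (0.62), Cyp4a10 (0.26) and Cyp4a31 (0) were the lowest.

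**Figure D3:**
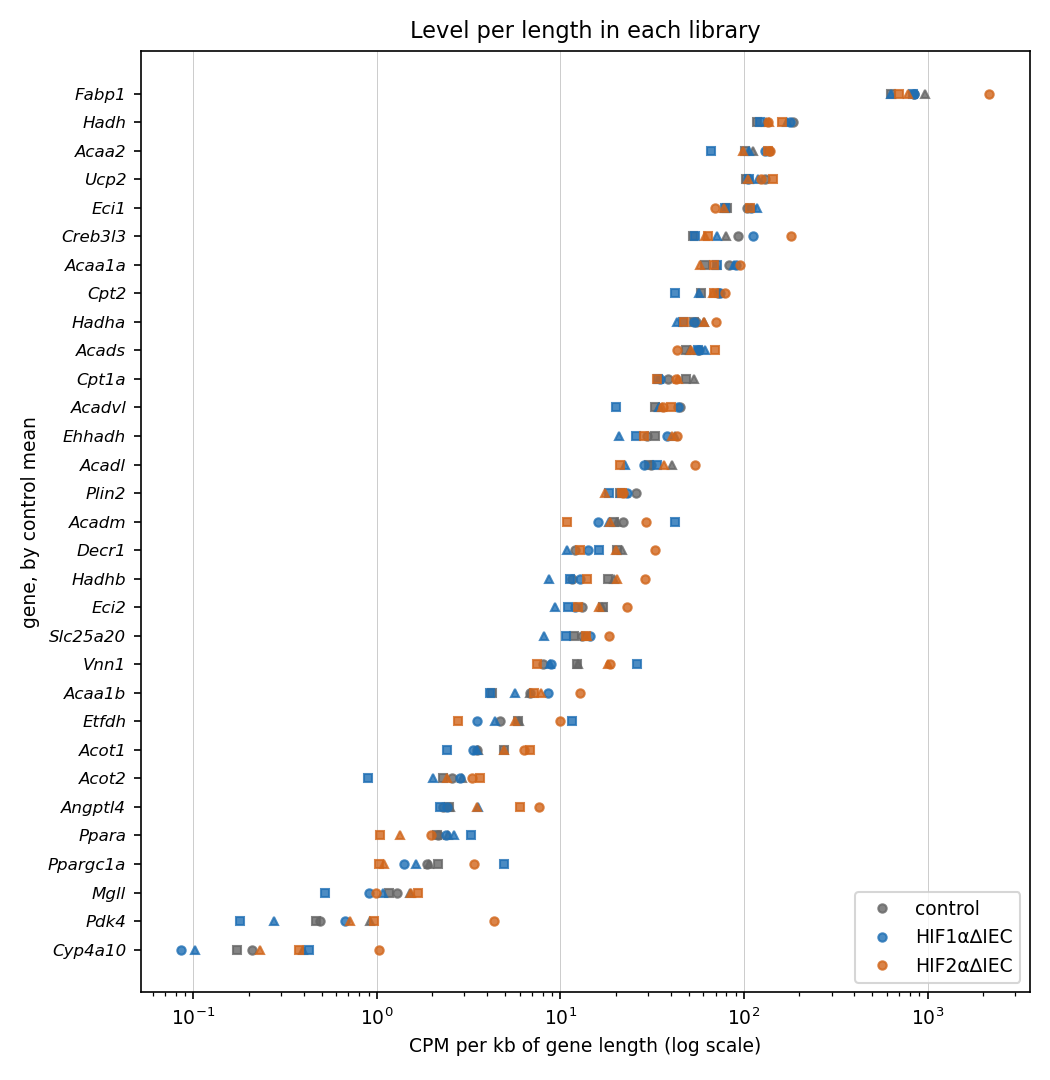
CPM per kb of gene length on a log scale for 31 genes ordered by their control mean, with 1 point per library, coloured by group and shaped by replicate (circle, square and triangle for 1, 2 and 3). Fabp1 lies highest, apart from the next gene, Cyp4a10 and Pdk4 lie lowest, and below Fabp1 each gene overlaps its neighbours in the order.

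The carnitine shuttle brings long-chain fatty acids into the mitochondrion. Cpt1a (ENSMUSG00000024900, chromosome 19, 3323301 to 3385732, mm10), the rate-limiting carnitine palmitoyltransferase of the outer membrane, had 167, 208 and 229 CPM in the controls, 150, 146 and 149 in HIF1α∆IEC and 184, 144 and 189 in HIF2α∆IEC. The HIF1α∆IEC libraries were close together (148 ± 1.95, SD, n = 3) and all below the controls (201 ± 31.8), while HIF2α∆IEC overlapped both. Cpt2, the inner-membrane enzyme, had 173, 139 and 177 CPM in the controls, 176, 101 and 136 in HIF1α∆IEC and 189, 164 and 163 in HIF2α∆IEC, and all groups overlapped. Slc25a20, the carnitine-acylcarnitine carrier whose DR1-like letters are shown above, had 63.8, 57.6 and 66.2 CPM in the controls. It had 70.2, 52.2 and 39.5 CPM in HIF1α∆IEC and 89.6, 66.5 and 67.8 in HIF2α∆IEC. All 3 HIF2α∆IEC values were above the controls, replicate 2 by a margin of less than 1 CPM.

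The acyl-CoA dehydrogenases carry out the first step of each β-oxidation cycle, and Etfdh passes their electrons to the respiratory chain. These genes varied more within groups than between them. Acadm, the medium-chain enzyme, had 64.6, 57.6 and 59.7 CPM in the controls but 46.7, 123 and 53.8 in HIF1α∆IEC and 85.5, 31.9 and 54.4 in HIF2α∆IEC. Etfdh had 35.0, 44.3 and 44.8 CPM in the controls, 26.2, 87.3 and 33.1 in HIF1α∆IEC and 74.9, 20.8 and 42.7 in HIF2α∆IEC. Both were thus highest in HIF1α∆IEC replicate 2 and lowest in HIF2α∆IEC replicate 2. Acadl, the long-chain enzyme, ran from 42.2 to 108 CPM over all libraries, both ends being HIF2α∆IEC libraries. Acadvl (very long chain) ran from 54.1 to 121 CPM, with its lowest value in HIF1α∆IEC replicate 2. Acads, the short-chain enzyme, was the steadiest of the group, between 98.5 and 157 CPM.

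The later mitochondrial steps hydrate, oxidise and cleave the acyl chain. Hadha and Hadhb encode the α and β subunits of the trifunctional protein, and their annotated starts lie 86 bases apart on opposite strands of chromosome 5. Hadhb (ENSMUSG00000059447, chromosome 5, 30155248 to 30184593) had 76.5, 119 and 129 CPM in the controls, 84.3, 74.3 and 57.1 in HIF1α∆IEC and 190, 92.3 and 133 in HIF2α∆IEC. All HIF2α∆IEC libraries were above all HIF1α∆IEC libraries, and both groups overlapped the controls. Hadha (ENSMUSG00000025745, chromosome 5, 30118301 to 30155162) had 293, 287 and 324 CPM in the controls, 287, 250 and 231 in HIF1α∆IEC and 374, 253 and 322 in HIF2α∆IEC. The highest HIF1α∆IEC value and the lowest control value of Hadha were equal to 3 digits. The ratio of Hadhb to Hadha CPM was 0.261, 0.416 and 0.398 in the controls, 0.294, 0.298 and 0.248 in HIF1α∆IEC and 0.509, 0.365 and 0.414 in HIF2α∆IEC. It was thus lower in every HIF1α∆IEC than in every HIF2α∆IEC library, with 1 control among the HIF1α∆IEC values.

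Decr1, the dienoyl-CoA reductase for unsaturated fatty acids, had 46.4, 79.1 and 83.6 CPM in the controls, 54.6, 62.6 and 42.1 in HIF1α∆IEC and 127, 49.6 and 78.0 in HIF2α∆IEC. The 3 groups overlapped. Hadh ran from 588 to 918 CPM, both ends being controls. Acaa2 ran from 99.7 CPM in HIF1α∆IEC replicate 2 to 210 in HIF2α∆IEC replicate 1. Eci1, a mitochondrial enoyl-CoA isomerase, ran from 75.8 CPM in HIF2α∆IEC replicate 1 to 128 in HIF1α∆IEC replicate 3, so it was lowest in the library where most of the set was highest.

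Peroxisomes shorten very long chains and pass the products on. Ehhadh (ENSMUSG00000022853, chromosome 16, 21761287 to 21787844), the peroxisomal bifunctional enzyme, had 89.2, 98.6 and 127 CPM in the controls, 116, 78.1 and 63.3 in HIF1α∆IEC and 131, 85.8 and 122 in HIF2α∆IEC, with overlap between all groups. Eci2 (ENSMUSG00000021417, chromosome 13, 34977748 to 35027094), an enoyl-CoA isomerase found mainly in peroxisomes, had 34.4, 44.8 and 44.1 CPM in the controls, 31.5, 28.9 and 24.4 in HIF1α∆IEC and 59.9, 32.6 and 42.2 in HIF2α∆IEC. Every HIF1α∆IEC library was below every other library for Eci2. Acaa1a and Acaa1b encode peroxisomal thiolases that are close copies, with 34.0% and 35.5% of their 50-base words shared, so reads may be split between them. Acaa1b had 13.4, 8.33 and 13.3 CPM in the controls, 16.8, 8.13 and 11.2 in HIF1α∆IEC and 25.1, 14.2 and 15.4 in HIF2α∆IEC, where all 3 values were above the controls. Acaa1a was far more abundant, between 253 and 419 CPM, and its groups overlapped.

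Acyl-CoA thioesterases release free fatty acids, and CYP4A enzymes ω-hydroxylate them. Acot1 (ENSMUSG00000072949, chromosome 12, 84009502 to 84017670), the cytosolic enzyme, had 5.47, 7.72 and 5.54 CPM in the controls, 5.22, 3.75 and 5.46 in HIF1α∆IEC and 9.82, 10.7 and 7.70 in HIF2α∆IEC. All HIF1α∆IEC libraries were below all controls, the nearest at 5.46 against 5.47 CPM, and the lowest HIF2α∆IEC library lay just under the highest control. Its neighbour Acot2, the mitochondrial enzyme, shares 24.5% of its 50-base words with Acot1 and had 5.66, 5.04 and 6.41 CPM in the controls, 6.20, 1.95 and 4.42 in HIF1α∆IEC and 7.21, 8.04 and 5.32 in HIF2α∆IEC. The groups of Acot2 overlapped. Cyp4a10 was low, with 5 to 69 counts or 0.181 to 2.17 CPM. Its highest value was again in HIF2α∆IEC replicate 1. Cyp4a31, which shares 12.8% of its 50-base words with Cyp4a10, was the gene left untested, and its 2 counts were in the same library.

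Among the genes of lipid storage, binding and lipolysis, Angptl4 (ENSMUSG00000002289, chromosome 17, 33773750 to 33781575) encodes a secreted inhibitor of lipoprotein lipase that is induced by PPARs and by hypoxia. It had 7.52, 8.17 and 8.27 CPM in the controls, 7.94, 7.29 and 11.6 in HIF1α∆IEC and 25.2, 19.7 and 11.6 in HIF2α∆IEC. All 3 HIF2α∆IEC libraries were above all controls, and replicate 3 was level with HIF1α∆IEC replicate 3. Fabp1 (ENSMUSG00000054422, chromosome 6, 71199827 to 71205023) had 466, 348 and 537 CPM in the controls, 465, 463 and 349 in HIF1α∆IEC and 1201, 386 and 431 in HIF2α∆IEC. The high mean of Fabp1 in HIF2α∆IEC (673 ± 458, SD, n = 3) came from replicate 1, and the other 2 libraries lay within the control range. Plin2, the coat protein of lipid droplets, was among the steadiest genes of the set, between 61.7 and 90.6 CPM with overlap between all groups. Mgll, the monoacylglycerol lipase, had 6.30, 5.69 and 7.36 CPM in the controls, 4.42, 2.53 and 5.24 in HIF1α∆IEC and 4.79, 8.15 and 7.51 in HIF2α∆IEC. For Mgll all HIF1α∆IEC libraries were below the controls.

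Of the remaining targets, Pdk4 (ENSMUSG00000019577, chromosome 6, 5483351 to 5496309) encodes the kinase that shuts off pyruvate dehydrogenase and so spares glucose when fat is burned. It had 1.71, 1.63 and 3.22 CPM in the controls, 2.36, 0.634 and 0.963 in HIF1α∆IEC and 15.2, 3.39 and 2.50 in HIF2α∆IEC. The value of HIF2α∆IEC replicate 1 was far above all others, replicate 3 lay within the control range, and replicate 2 was just above it. Vnn1, a pantetheinase, ran from 17.9 CPM in HIF2α∆IEC replicate 2 to 63.4 in HIF1α∆IEC replicate 2. Ucp2 stayed between 718 and 1009 CPM, with overlap between all groups.

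The 3 regulators differed among themselves. Ppara itself (ENSMUSG00000022383, chromosome 15, 85734983 to 85802819) had 8.30, 8.17 and 9.41 CPM in the controls, 9.13, 12.5 and 10.1 in HIF1α∆IEC and 7.53, 3.99 and 5.11 in HIF2α∆IEC. Every HIF2α∆IEC library was below every library of both other groups. Ppargc1a, the coactivator PGC-1α, had 12.5, 14.3 and 12.8 CPM in the controls, 9.39, 32.6 and 10.8 in HIF1α∆IEC and 22.4, 6.81 and 7.28 in HIF2α∆IEC. Its highest values were in the 2 libraries that stood apart, and the other 4 libraries of those groups were below all controls. Creb3l3, a membrane-bound transcription factor of lipid metabolism in liver and gut, had 281, 158 and 239 CPM in the controls, 340, 163 and 216 in HIF1α∆IEC and 545, 192 and 186 in HIF2α∆IEC, again highest in HIF2α∆IEC replicate 1.

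**Figure D4:**
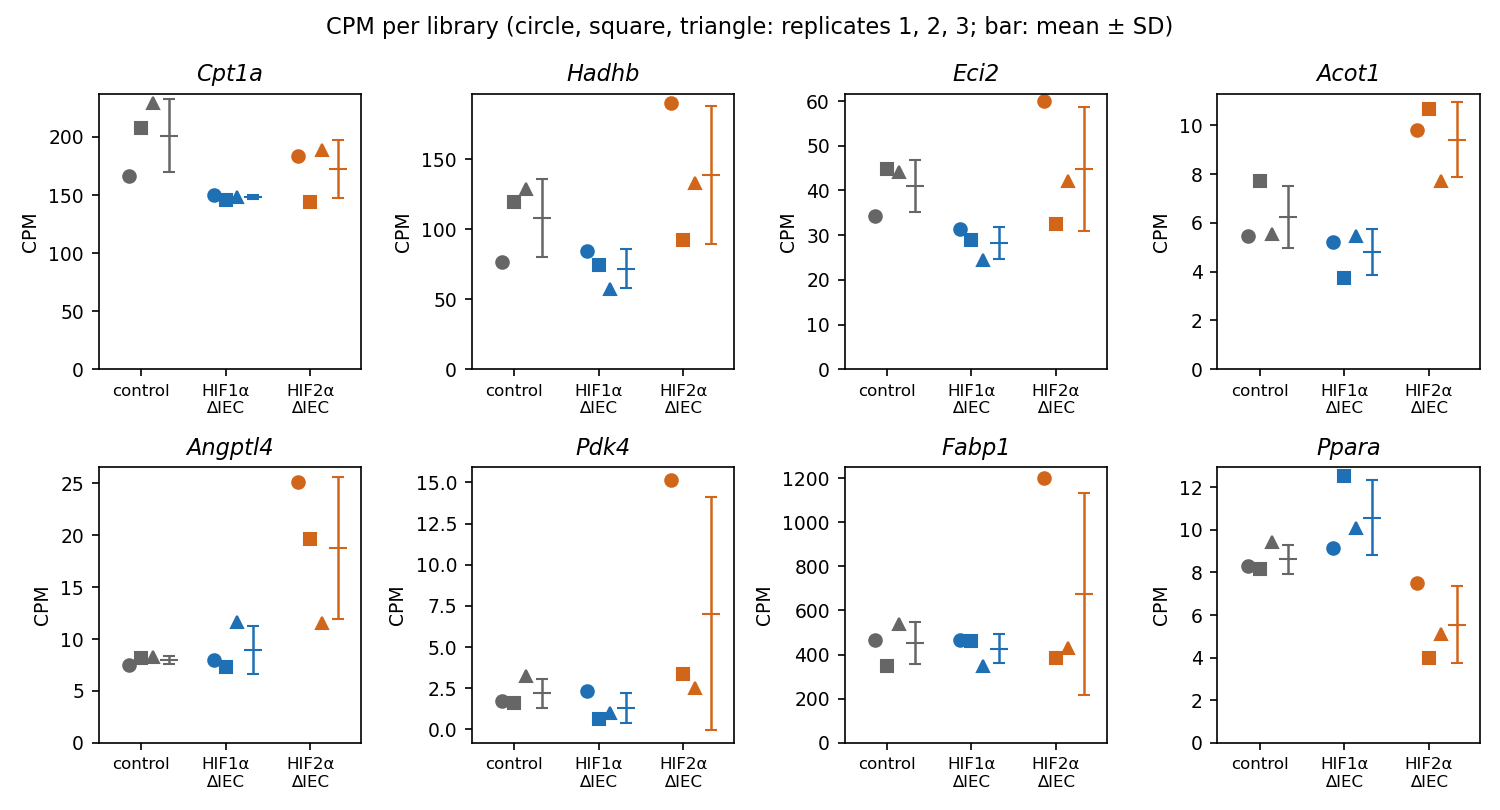
CPM of 8 genes in each library (circle, square and triangle for replicates 1, 2 and 3), with a bar for the mean and error bars for the SD of 3 libraries in each group. Cpt1a, Eci2 and Acot1 lie below the controls in all HIF1α∆IEC libraries, Angptl4 above and Ppara below them in all HIF2α∆IEC libraries, and the high mean of Pdk4 and Fabp1 in HIF2α∆IEC is that of replicate 1 (15.2 and 1201 CPM).

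Against the controls, HIF1α∆IEC had a negative fold change for most genes of the set, but not in all its libraries: in replicate 1, the only one read as male, 16 of the 31 genes were above the control mean, against 9 and 7 in replicates 2 and 3. With a term for sex the median fold change of the set was 0.06. No control was read as female, so that term rests on the libraries of the knockout groups alone. Among them is the male library of HIF2α∆IEC, replicate 1, which stood apart. The value of 0.06 therefore does not show what sex did within HIF1α∆IEC. Without that term, of the 31 genes 19 had a negative log2 fold change (61.3%), beside 47.3% of all genes tested, and the median was -0.19, against 0.02 over all genes. The range was from -0.72 to 0.41. With edgeR 0 of the 31 passed an adjusted p of 0.05, as did 0 of 15486 genes (0%), and DESeq2 also called 0 of the set. A p that misses the threshold does not show that values did not differ. At an unadjusted p under 0.05 there were 0 of the 31, beside 3.87% of all genes. Groups without overlap were found for 5 genes, all lower in HIF1α∆IEC (16.1%, beside 3.72% of all genes): Cpt1a, Hadha, Eci2, Acot1 and Mgll. The margin was very small for Hadha, at 286.68 against 286.71 CPM, and for Acot1, at 5.46 against 5.47. None lay wholly higher, beside 4.6% of all genes.

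All adjusted p-values were 0.999 (edgeR). The smallest unadjusted p was that of Cpt1a, which was 1.36-fold lower, at a log2 fold change of -0.44 ± 0.20 (SE, unadjusted p = 0.0503). Eci2 was at -0.54 ± 0.26, Hadhb at -0.59 ± 0.30, Mgll at -0.66 ± 0.36, Acot1 at -0.37 ± 0.31 and Decr1 at -0.39 ± 0.34. Hadha was at -0.24 ± 0.21, Ehhadh at -0.29 ± 0.27 and Pdk4 at -0.72 ± 0.71. Plin2 (-0.13 ± 0.20), Fabp1 (-0.08 ± 0.39), Angptl4 (0.17 ± 0.33) and Ppara (0.29 ± 0.31) lay within or near 1 SE of 0. By role, all 3 carnitine shuttle genes and all 3 tested thioesterase and hydroxylase genes were negative, while 3 of 5 genes of the dehydrogenase group and all 3 regulators were positive. With the term for sex, which is shared with HIF2α∆IEC, Pdk4 turned to 0.40, Fabp1 to 0.57 and Ehhadh to 0.02. In the HIF1α∆IEC libraries themselves the log2 deviation from the control mean was 0.17, -1.61 and -1.06 for Pdk4. For Fabp1 it was 0.07, 0.06 and -0.34. Without the 2 libraries that stood apart 4 genes of the set (12.9%, beside 7.15% of all genes in that fit) had an unadjusted p under 0.05. They were Cpt1a at -0.47, Hadhb at -0.64, Eci2 at -0.59 and Cyp4a10, a gene of low counts. Without control replicate 1 the number of genes at that p was 3 (9.68%, beside 7.2%).

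HIF2α∆IEC was compared with the same 3 controls. Angptl4 and Pdk4 had the largest positive fold changes, most other genes lay slightly above 0, and Ppara lay below. Of the 31 genes 8 had a negative log2 fold change (25.8%), beside 47.1% of all genes tested, and the median was 0.13, against 0.01 over all genes. With edgeR 0 of the set and 0 of 15486 genes (0%) passed the adjusted threshold, and DESeq2 called 0 of the set. At an unadjusted p under 0.05 there were 2 of the 31 (6.45%), beside 1.85% of all genes. All HIF2α∆IEC libraries were above all controls for Slc25a20, Acaa1b and Angptl4 (9.68%, beside 3.03% of all genes) and below them for Ppara (3.23%, beside 2.51%). For Slc25a20 the nearest values were 66.5 CPM in HIF2α∆IEC and 66.2 in the controls.

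Angptl4 was 2.35-fold higher in HIF2α∆IEC, at a log2 fold change of 1.23 ± 0.33 (SE, unadjusted p = 0.0032, edgeR adjusted p = 1.00). It was at 0.97 without the 2 libraries that stood apart. Pdk4 was 3.19-fold higher, at 1.68 ± 0.70 (unadjusted p = 0.035, adjusted p = 1.00), but at 0.43 without those libraries. Ppara was 1.56-fold lower, at -0.64 ± 0.31, and at -0.90 without them. Acot1 was at 0.59 ± 0.31, Acaa1b at 0.64 ± 0.35 and Fabp1 at 0.58 ± 0.39, the last turning to -0.12 without those libraries. Cpt1a (-0.22 ± 0.20), Plin2 (-0.18 ± 0.20), Hadha (0.07 ± 0.21) and Ehhadh (0.10 ± 0.27) were close to 0, all with adjusted p = 1.00. The number of negative genes, 8 of 31 in the main fit, was 13 of 31 without HIF2α∆IEC replicate 1 (beside 49.4% of all genes). It was 4 of 31 without replicate 3 (beside 46.4%). The number at an unadjusted p under 0.05 was 1 without control replicate 1 (3.23%, beside 1.16% of all genes) and 1 without control replicate 2 (beside 1.35%). With a term for sex the median of the set was 0.34, and 7 genes (22.6%, beside 5.33% of all genes in that fit) had an unadjusted p under 0.05, with Pdk4 at 2.56. The only male library of HIF2α∆IEC is replicate 1, which stood apart.

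**Figure D5:**
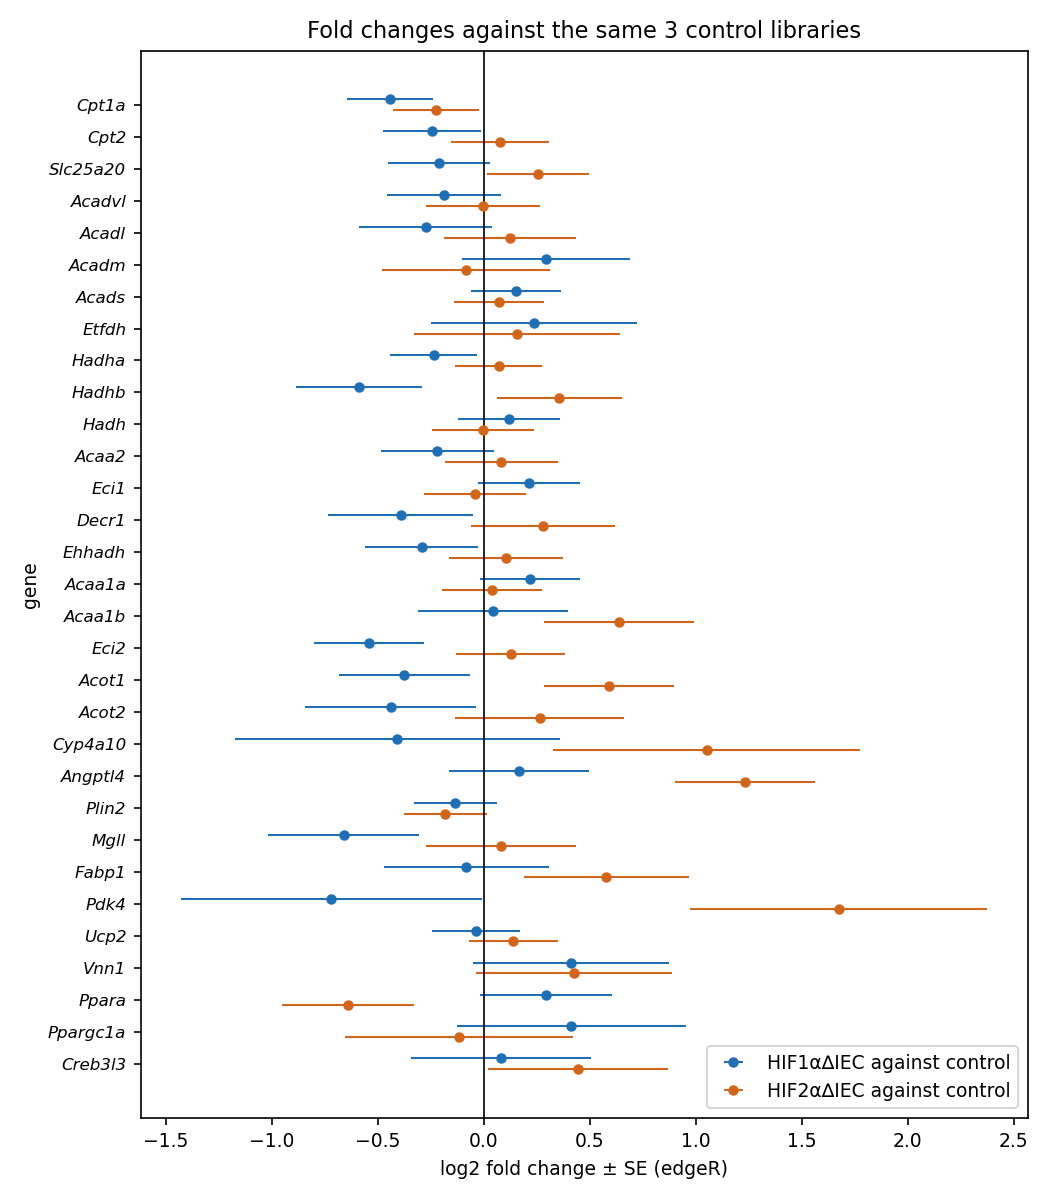
Log2 fold change ± SE (edgeR) of 31 genes in HIF1α∆IEC (blue) and HIF2α∆IEC (orange), both against the same 3 controls. The HIF1α∆IEC points lie left of 0 for 19 genes and the HIF2α∆IEC points right of 0 for 23, and 0 of the genes passed an adjusted p of 0.05 in either comparison.

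Because both comparisons use the same controls, their values are not independent, and the difference between the groups was taken from the libraries directly. HIF2α∆IEC had higher values than HIF1α∆IEC for most of the set and a lower value for Ppara. The smallest unadjusted p-values were those of Pdk4, Angptl4, Hadhb and Acot1. Of the 31 genes 9 were negative (29%, beside 48.4% of all genes tested), and the median was 0.32, against 0.01 over all genes. With edgeR 0 of the set and 0 of 15486 genes (0%) passed the adjusted threshold, and DESeq2 called 0 of the set. At an unadjusted p under 0.05 there were 6 of the 31 (19.4%), beside 6.59% of all genes. The libraries did not overlap for Hadhb, Eci2, Acot1 and Pdk4, which were higher (12.9%, beside 4.37% of all genes), and for Ppara, which was lower (3.23%, beside 6.08%). For Pdk4 the nearest values were 2.50 CPM in HIF2α∆IEC and 2.36 in HIF1α∆IEC.

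Pdk4 was 5.26-fold higher than in HIF1α∆IEC, at 2.39 ± 0.72 (edgeR unadjusted p = 0.0066, adjusted p = 0.649). Angptl4 was at 1.07 ± 0.33, Acot1 at 0.96 ± 0.31 and Hadhb at 0.95 ± 0.30, each with the same adjusted p of 0.649. Ppara was at -0.93 ± 0.31 (adjusted p = 0.652) and Eci2 at 0.67 ± 0.26 (0.691). The remaining named enzymes were at 0.31 ± 0.21 for Hadha, 0.40 ± 0.27 for Ehhadh and 0.22 ± 0.20 for Cpt1a. Fabp1 was at 0.66 ± 0.39 and Plin2 at -0.05 ± 0.20, and adjusted p for these 5 was from 0.821 to 0.992. Both groups hold female libraries, 2 each, and among those alone Pdk4 was at 1.91, Acot1 at 1.04, Hadhb at 0.84, Angptl4 at 0.77, Eci2 at 0.55 and Ppara at -1.25. In that comparison 0 of the set passed an adjusted p of 0.05, while genes outside the set did (counted below), and the median was 0.30. At an unadjusted p under 0.05 there were 7 of the 31 genes (22.6%, beside 10.5% of all genes in that fit). Without the 2 libraries that stood apart Ppara was at -1.02, Pdk4 at 0.86, Acot1 at 0.83, Hadhb at 0.73, Angptl4 at 0.72 and Fabp1 at 0.05. Without HIF1α∆IEC replicate 1 the median was 0.57, and 11 genes (35.5%, beside 7.85% of all genes in that fit) had an unadjusted p under 0.05.

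Other genes of the pathway were read from 5 further lists of 100 genes, of which 91 were tested. In HIF1α∆IEC against control 50 were positive and 41 negative (45.1%, beside 47.3% of all genes tested), with a median of 0.01. At an unadjusted p under 0.05 there were 0, beside 3.87% of all genes. In HIF2α∆IEC against control 55 were positive and 36 negative (39.6%, beside 47.1% of all genes), with a median of 0.05. Of the 91 genes 2 (2.2%, beside 1.85% of all genes) had an unadjusted p under 0.05. Between the knockout groups 51 were positive and 40 negative (44%, beside 48.4% of all genes), with a median of 0.07. At that p there were 4 (4.4%, beside 6.59% of all genes). With edgeR 0 of the 91 were called in any of the 3 comparisons.

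Among the list genes of small unadjusted p in HIF1α∆IEC against control were Acacb, the acetyl-CoA carboxylase that makes malonyl-CoA, an inhibitor of CPT1, at -0.63 ± 0.33, Klf15, a regulator of fasting metabolism, at 0.65 ± 0.36 and Nrip1, a corepressor of nuclear receptors, at 0.71 ± 0.42, with adjusted p = 0.999 for each. Nrip1 had 15.8, 54.4 and 19.0 CPM there, so its value was that of replicate 2.

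In HIF2α∆IEC against control, list genes of small unadjusted p were Acot12, a thioesterase, at 1.70 ± 0.76, Crot, the peroxisomal carnitine octanoyltransferase, at 0.98 ± 0.45, Aldh1a1, a retinaldehyde dehydrogenase, at 1.38 ± 0.64 and Fabp2, the intestinal fatty acid binding protein, at 0.85 ± 0.39 (adjusted p = 1.00 for each). All 4 were highest in HIF2α∆IEC replicate 1, where Acot12 had 35.8 CPM against 2.93 and 6.70 in replicates 2 and 3, and Fabp2 had 2071 against 775 and 919. Between the knockout groups they included Aldh1a1 at 1.79 ± 0.64, Acox2, a branched-chain acyl-CoA oxidase, at 1.36 ± 0.51 and Acot12 at 1.68 ± 0.76, with adjusted p from 0.679 to 0.756. Acot12 turned to -0.13 among the female libraries.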

How the data were processed

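Messenger RNA of mouse small intestine epithelial cells was sequenced as 9 libraries, 3 per group, from an Illumina TruSeq kit, per the labels' protocols. The authors deposited raw read counts per gene, with gene coordinates and a gene length (in bases, another measure), which served here for CPM per kb. The submitters' processing notes name CASAVA, Bowtie 0.12.2 and the build mm10. How reads were counted, with which annotation and by which strand, is not given in the sources used here. Overlapping genes and near copies are therefore uncertain.

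The tests ran in edgeR 4.0.16 under R 4.3.3: filterByExpr by group, TMM scaling, and the quasi-likelihood F test on all 9 libraries by group (6 residual degrees of freedom), two-sided, with Benjamini-Hochberg adjustment over 15486 genes and a threshold of 0.05. The SE of a log2 fold change is its size divided by the square root of F. CPM are TMM-scaled, log2 CPM used a prior count of 2, and errors of CPM are SDs of 3 libraries. The fits were tested on simulated counts. No pair of libraries agreed within sampling noise (lowest chi-square per gene 16.4, where counting noise gives 1).

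The members, pathway lists and markers were chosen with earlier results of these data known. Named fold changes are those of Cpt1a, Hadha, Ehhadh, Pdk4, Angptl4, Plin2, Fabp1 and Ppara, of the 6 members of smallest p per comparison, and of up to 4 list genes of smallest p (some genes that this rule names are not reported here). Promoters are from RefSeq (GRCm38.p6), and shared 50-base words were counted in GENCODE M21 transcripts. Alternatives were RLE scaling, DESeq2 1.42.0, a fit of only the 6 libraries of a comparison, at least 1 CPM in 3 libraries, no count filter, a block for the replicate number, leaving out each library or the 2 that stood apart, and a term for sex. The comparison of female libraries only was added after seeing the data.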

Additional observations from a re-analysis of the deposited data

Results flagged for a closer look

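Acot1 and Ppara were picked from the set by a rule: all libraries of the knockout groups lay on opposite sides of the control mean. How many of all genes meet this rule was not counted. Every HIF1α∆IEC library was below the control mean for Acot1 and above it for Ppara, and every HIF2α∆IEC library lay on the other side. Single libraries still overlapped the controls. Acot1 had 7.70 CPM in HIF2α∆IEC replicate 3 against 7.72 in control replicate 2. Ppara had 9.13 CPM in HIF1α∆IEC replicate 1 against 9.41 in control replicate 3. The direct comparison used the same libraries that picked these genes, so it is not independent of the rule. In it HIF2α∆IEC differed from HIF1α∆IEC by a log2 fold change of 0.96 for Acot1 and of -0.93 for Ppara. Neither passed over all genes (edgeR adjusted p = 0.649 and 0.652). Over all alternatives the adjusted p ran from 0.154 to 1.00 for Acot1 and from 0.23 to 1.00 for Ppara. Acot1 shares part of its sequence with Acot2.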

How the results depend on the processing

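With every alternative run, 0 of the gene set passed an adjusted p of 0.05 in each of the 3 comparisons. Over all genes the calls moved from 0 to 2, 5 and 15 with DESeq2 and to 1, 5 and 10 without a count filter (HIF1α∆IEC and HIF2α∆IEC against control, then HIF2α∆IEC against HIF1α∆IEC). Without the 2 libraries that stood apart 1 gene was called in HIF2α∆IEC against control. Among female libraries 244 of 15298 genes differed between the knockout groups, from 2 libraries each. Leaving out 1 library gave 0 to 1 in each comparison. Genes of the set at an unadjusted p under 0.05 numbered 0 in HIF1α∆IEC against control (beside 3.87% of all genes). The number was 1 with RLE scaling, DESeq2, no filter, the CPM minimum or a sex term (3.12% to 3.33%, beside 2.83% to 4.66%). It was 2 in the fit of 6 libraries (6.67%, beside 4.35%) and 4 without the libraries that stood apart (12.9%, beside 7.15%). Leaving out 1 library gave 0 to 3 (0% to 9.68%, beside 1.37% to 7.2%). In HIF2α∆IEC against control the 2 became 4 with DESeq2 (12.9%, beside 2.31%) and 7 with a sex term (22.6%, beside 5.33%). The number was 3 without the libraries that stood apart (9.68%, beside 5.6%). Leaving out 1 library gave 1 to 3 there (3.23% to 9.68%, beside 1.16% to 3.77%). Between the knockout groups the 6 became 10 without a filter (31.2%, beside 6.09%). Leaving out 1 library gave 6 to 11 (19.4% to 35.5%, beside 4.62% to 9.66%). The negative genes of the set in HIF2α∆IEC numbered 13 of 31 without the libraries that stood apart, where 49.3% of all genes were negative. Leaving out 1 library gave 4 to 13, beside 45.2% to 49.4% of all genes. With a sex term the median of the set was 0.056 in HIF1α∆IEC and 0.34 in HIF2α∆IEC, and between the knockout groups it ran from 0.22 to 0.57 leaving out 1 library. The cause of these shifts was not tested.

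The main fit did not pair same-numbered libraries, and the labels name no batch. Of 9 same-numbered pairs 3 had deviations correlated above 0.1 (range -0.37 to 0.24). Pairs of different number from different groups ran from -0.26 to 0.35. With so few libraries per group these values cannot decide whether the numbers mark a pairing. With the replicate number as a replicate block, 1 gene was called over all genes in HIF1α∆IEC and 2 in HIF2α∆IEC against control. In the latter 1 gene of the set had an unadjusted p under 0.05 (3.23%, beside 1.49% of all genes).

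Single genes changed sign as follows. Without the libraries that stood apart, in HIF2α∆IEC against control, Hadha was at -0.047 and Fabp1 at -0.12, and Nrip1 in HIF1α∆IEC at -0.095. With a sex term, in HIF1α∆IEC, Ehhadh was at 0.0195, Pdk4 at 0.40 and Fabp1 at 0.57. Between the knockout groups Plin2 was at 0.018 without a filter and at 0.026 among female libraries, where Acot12 was at -0.13. Leaving out 1 library, Angptl4 ran from -0.082 to 0.25, Fabp1 from -0.24 to 0.064 and Nrip1 from -0.094 to 0.99 in HIF1α∆IEC against control. In HIF2α∆IEC against control the ranges were -0.048 to 0.21 for Hadha, -0.0088 to 0.27 for Ehhadh and -0.13 to 0.85 for Fabp1. Between the knockout groups they were -0.11 to 0.063 for Plin2 and -0.017 to 0.94 for Fabp1. Of 224, 196 and 210 recomputed fold changes of named genes in the 3 comparisons, 216, 191 and 204 kept their direction and their side of the threshold. Depth limits Cyp4a10, with 5 to 69 counts per library, and Cyp4a31, with at most 2.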

Other observations

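Of the 31 genes 5 were highest in HIF1α∆IEC replicate 2, which was the highest library for 23.7% of all genes tested. These 5, Acadm, Etfdh, Vnn1, Ppara and Ppargc1a, were each lowest in HIF2α∆IEC replicate 2. Of all genes tested that were highest in the first library, 26.4% were lowest in the second. Between these 2 libraries Acadm differed 3.85-fold, Etfdh 4.20-fold, Vnn1 3.53-fold, Ppara 3.14-fold and Ppargc1a 4.79-fold. Both libraries were read as female, and their mitochondrial shares were 12.2% and 5.08%. Among the genes of smallest range over the 9 libraries were Ucp2, at 1.40-fold from lowest to highest, and Plin2, at 1.47-fold. Pdk4 had the widest range, at 24.0-fold, followed by Cyp4a10 at 12.0-fold. The 5 genes were chosen after their values were seen.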
